A study of Mus musculus with 48 samples.

Results

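The comparison described here set 2 engineered forms of interleukin-2 (IL-2), the 3x mutein and the H16R mutein, against each other in regulatory T cells (Tregs) of mice whose major histocompatibility complex class II (MHC II) had been blocked by antibody. Its members were the 8 Treg libraries of the MHC II-blocked mice given either mutein, 4 with 3x and 4 with H16R, out of 48 libraries in the series, and they were picked by the drug and antibody named in the sample labels. The series also held Tregs given wild-type (WT) IL-2 or phosphate-buffered saline (PBS), the same 4 treatments after an isotype control antibody, and conventional T cells. All mice were female C57BL/6 animals of 8 to 12 weeks, and the labels name no altered allele. Every mouse of the 8 received 2 intraperitoneal doses of the MHC II-blocking antibody, each of 500 µg, on day -1 and day 0, and 25 µg of one mutein subcutaneously on day 0, and spleens were taken on day 4, so dose and time were matched and the text compares 1 pair of molecules, in this arm and in the isotype arm. Both muteins were human IL-2 fused to an antibody Fc; H16R carries the single substitution H16R, and 3x carries D20A, V91K and M104V. Each library came from the bead-purified Tregs of 1 mouse, which were selected on CD25, the protein encoded by Il2ra.

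IL-2 binds a receptor made of the alpha chain CD25 (Il2ra), the beta chain CD122 (Il2rb) and the common gamma chain (Il2rg), and signals through the kinases JAK1 and JAK3 to the transcription factor STAT5. Tregs depend on this signal because they make little IL-2 themselves, and their abundant CD25 lets them respond to IL-2 forms that bind the receptor weakly. Tregs also receive signals from the T cell receptor (TCR) when it meets peptide on MHC II, the contact that the antibody was given to prevent, and these signals induce early response genes such as Nr4a1 and the NF-kB regulator Tnfaip3. The comparison asks how the muteins differ from each other when MHC II is blocked, and the isotype arm asks whether that difference depends on the blockade.

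The libraries were deep and held Treg transcripts. Expected counts summed to 26.73 M to 40.41 M per library with H16R and 35.46 M to 46.57 M with 3x (M, one-million), within a range of 18.28 M to 51.24 M over the 32 Treg libraries. Levels are given below as counts-per-million (CPM) after scaling by edgeR's trimmed mean of M-values (TMM). Foxp3, the defining Treg transcription factor, stood at 1035, 1058, 1126 and 1151 CPM with H16R and at 1125, 1009, 1029 and 969 CPM with 3x, replicates 1 to 4 in that order here and throughout. Summed over each marker list, B cell genes reached 54.2 to 98.8 CPM with H16R and 63.5 to 143.6 CPM with 3x, plasma cell genes 727 to 1505 and 764 to 1632 CPM, myeloid and dendritic cell genes 57.4 to 104.7 and 69.0 to 95.4 CPM, and CD8 and NK cell genes 88.4 to 142.5 and 130.2 to 248.7 CPM. No marker of these 4 lists (0 of 11, 7, 15 and 7 tested) passed edgeR's test between the muteins, and 1 of 7 erythroid and megakaryocyte genes and 1 of 10 MHC II genes were lower with 3x. The myeloid marker Itgam was at 22.2, 20, 32.1 and 19.4 CPM with H16R and 45.65, 33, 35.5 and 40.55 CPM with 3x, without overlap. With only the contrast's libraries fitted, 2 myeloid markers were higher and 1 lower with 3x. Without 3x replicate 2, 2 plasma cell markers were lower and 1 CD8 and NK cell marker was higher. Every B cell, plasma cell and myeloid marker was above 0 in all 8 libraries, and Hba-a2 was at 0 in all of them.

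In a principal component analysis of the 16 MHC II-blocked Treg libraries, the first component carried 50.5% of the variance and ran from PBS (-41.2 to -35) over WT IL-2 (-24.5 to -15.9) and H16R (14.9 to 29.5) to 3x (22.7 to 42.7). One 3x library stood apart from its group: replicate 2 lay at 22.7, inside the H16R range, while the other 3 lay at 38.5 to 42.7. In the 8 libraries alone it lay at -1.6 on the first component (34.9% of the variance), between the H16R libraries at -20.2 to -8.2 and the other 3x libraries at 15.6 to 23.2. Counts of the gene lists below are therefore also given without 3x replicate 2.

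**Figure D1:**
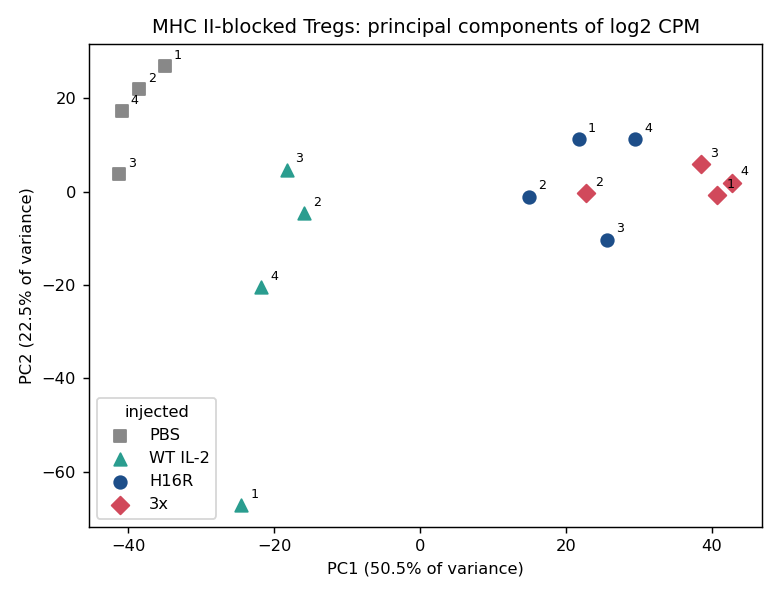
Principal components of log2 CPM in the 16 MHC II-blocked Treg libraries, with PC1 (50.5% of the variance) on the x axis and PC2 (22.5%) on the y axis; each point is 1 mouse, shaped and colored by the injected molecule and numbered by replicate. Both muteins lie to the right of PBS and WT IL-2, and 3x replicate 2 lies among the H16R libraries.

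Tregs given 3x held more transcripts of the cell cycle than Tregs given H16R, above all of mitosis, together with more Il2ra (1.63-fold) and more of the single genes Il13, Pparg and Ifitm1. They held fewer transcripts of 12 of 25 early TCR response genes, of 13 of 28 TCR signaling genes, of the chemokine genes Ccl3, Ccl4 and Ccl5, and of 32 of 76 ribosomal protein genes. Foxp3, Ctla4 and Ikzf2 showed no difference past the test. The differences were widespread and mostly small: 3127 of 12390 protein-coding genes passed edgeR's quasi-likelihood test at a Benjamini-Hochberg adjusted p under 0.1, which is 25.2% of the genes tested. Of these, 1572 were higher with 3x (12.7% of those tested) and 1555 lower (12.6%), the median absolute log2 fold change among them was 0.24, and 71 reached an absolute log2 fold change of 1, 58 of them higher with 3x. All 4 libraries of one mutein lay on one side of all 4 of the other for 2598 genes, 21% of those tested (10.8% with 3x above and 10.2% with 3x below).

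The total rested in part on single libraries: without 3x replicate 2 it was 3678, and without 3x replicate 4 it was 1975. With scaling to total counts in place of TMM, 1884 of the calls were higher and 1195 lower, so that 61.2% were higher, against 50.3%. Fold changes below are 3x over H16R on the log2 scale, with the standard error (SE), and an adjusted p is from that test over all 12390 genes. The mice were separate animals, and RNA from bulk cells cannot separate a change per cell from a change in which cells were present.

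**Figure D2:**
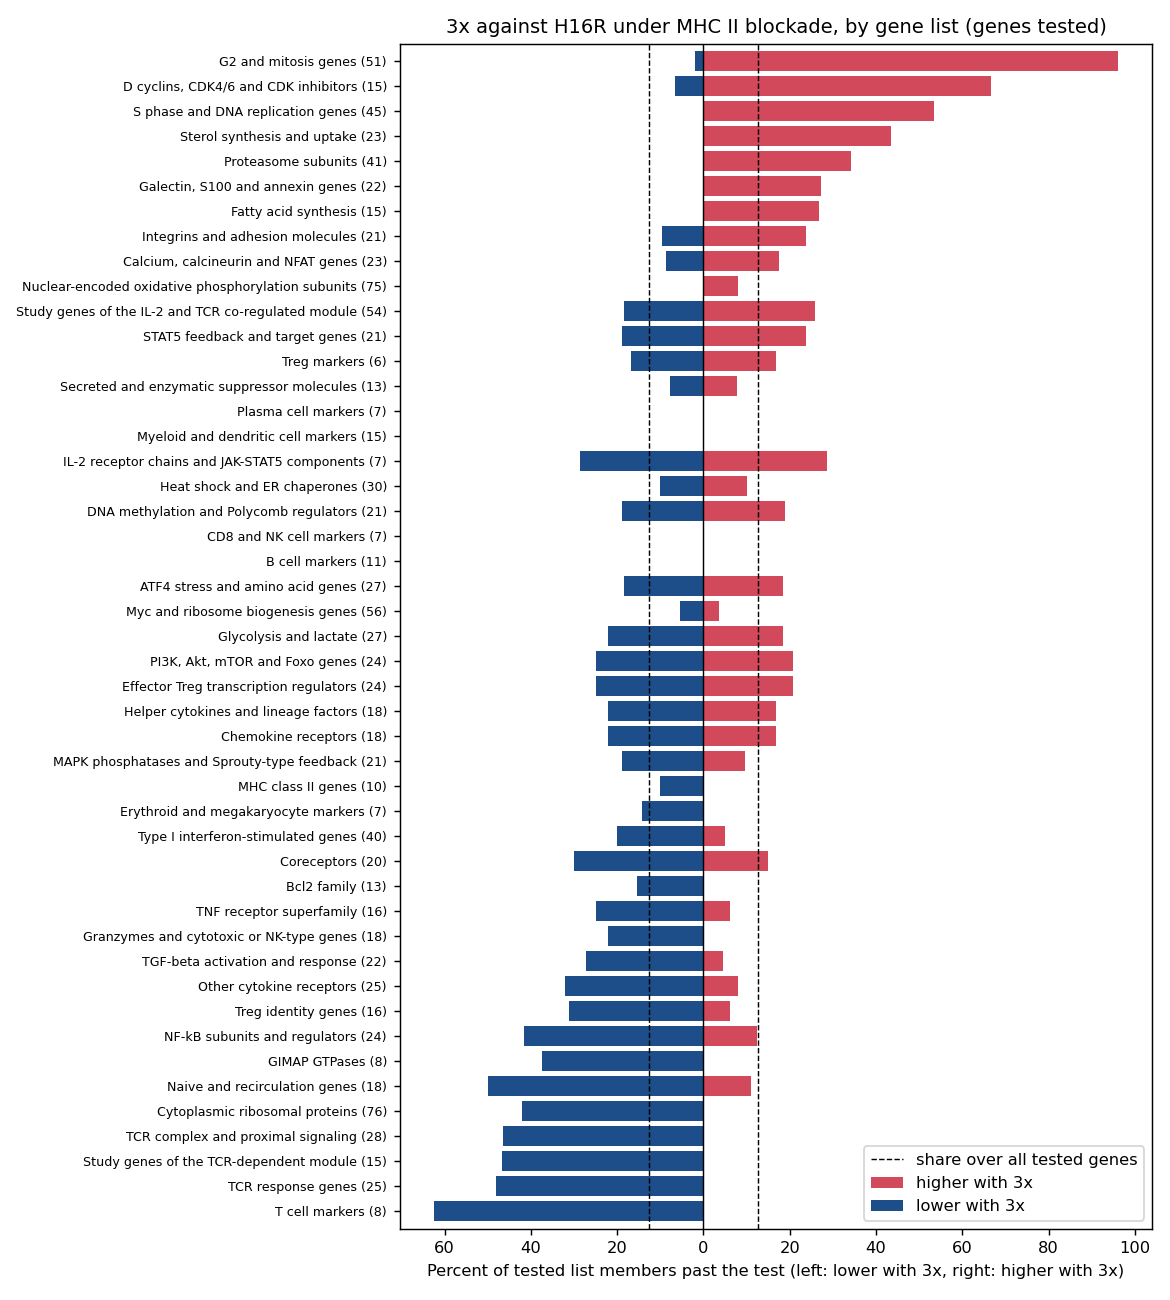
Share of tested members of the gene lists shown (number in brackets) that passed edgeR's test, in percent, with members higher with 3x to the right and lower to the left; dashed lines mark the shares over all tested genes (12.7% and 12.6%). G2 and mitosis genes reach 96.1% higher, and TCR response genes 48% lower.

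Genes of G2 phase and mitosis had the highest share of members past the test among the 48 lists, 98%. Of 51 such genes, all of them tested, 49 were higher with 3x and 1 was lower, against 12.7% and 12.6% of all genes tested, and the median log2 fold change was 0.59, against -0.0048 over all genes. Without 3x replicate 2 the counts were again 49 and 1. Pttg1, the securin that restrains separase, was the lower member, and Smc4, a condensin subunit, was the one that did not pass; both are singled out here after their values were seen. The summed level of the list was 3241, 3278, 3458 and 3113 CPM in the H16R libraries and 4267, 3886, 4357 and 4813 CPM in the 3x libraries. Every 3x library was above every H16R library, with replicate 2 the lowest of the 3x group.

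Promoters of these genes are shown because the group moved together and shares sequence elements that the list did not use. The 6 genes below are those with the largest rises on the list whose 150 bases upstream of the first listed RefSeq start (build GRCm38.p6) hold both TTTGAA, the core of the cell cycle homology region (CHR), and ATTGG, the box bound by NF-Y, on either strand. Capitals mark each match to TTTGAA or ATTGG or to its reverse complement, and each sequence reads 5′ to 3′ on the gene's strand up to the base before the start.

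Ube2c (chr2:164769779-164769928, plus strand): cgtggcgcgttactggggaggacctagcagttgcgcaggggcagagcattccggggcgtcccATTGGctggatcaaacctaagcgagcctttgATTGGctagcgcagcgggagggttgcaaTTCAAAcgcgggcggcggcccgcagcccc
Ect2 (chr3:27153879-27154028, minus strand): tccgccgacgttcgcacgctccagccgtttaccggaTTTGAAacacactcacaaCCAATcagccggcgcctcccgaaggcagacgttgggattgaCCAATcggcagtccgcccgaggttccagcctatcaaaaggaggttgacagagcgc
Kif11 (chr19:37376232-37376381, plus strand): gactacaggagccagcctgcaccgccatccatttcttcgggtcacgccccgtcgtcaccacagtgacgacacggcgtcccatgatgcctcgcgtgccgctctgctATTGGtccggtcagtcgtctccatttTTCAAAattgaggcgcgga
Mki67 (chr7:135716380-135716529, minus strand): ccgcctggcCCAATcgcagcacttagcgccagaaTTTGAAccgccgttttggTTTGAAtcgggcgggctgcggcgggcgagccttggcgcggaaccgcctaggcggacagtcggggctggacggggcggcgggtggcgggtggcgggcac
Cdk1 (chr10:69352913-69353062, minus strand): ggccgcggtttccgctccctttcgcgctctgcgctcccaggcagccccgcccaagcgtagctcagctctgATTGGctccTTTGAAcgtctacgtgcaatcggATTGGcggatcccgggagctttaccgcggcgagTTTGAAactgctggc
Espl1 (chr15:102296143-102296292, plus strand): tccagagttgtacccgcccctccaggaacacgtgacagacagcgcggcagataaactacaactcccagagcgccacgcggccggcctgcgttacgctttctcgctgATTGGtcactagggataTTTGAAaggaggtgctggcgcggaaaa

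The window from 250 bases before to 50 bases after the start held TTTGAA in 73.8% of the 42 list promoters found in the RefSeq table, against 12.2% of the 9763 promoters matched to genes tested, which cover only 78.8% of those genes, and 18.1% of all 27025 promoters there. ATTGG was in 71.4% of the list's promoters, 38.8% of those of tested genes and 37.9% of all promoters. Both elements together were in 61.9%, 5.07% and 7.12% in that order. Over the 1269 promoters matched to genes higher with 3x the share with both was 9.61%, and over the 1250 matched to genes lower with 3x it was 3.68%. TTCNNNGAA, the palindrome of STAT5-type sites, was in 5.59% of the promoters of genes higher with 3x, 6.96% of those lower, 6.82% of those matched to genes tested and 8.47% of all promoters. The E2F motif TTTCGCGC was in 1.18%, 0.4%, 0.594% and 0.318% in the same order, and in 11.1% of the 36 promoters matched to S phase and DNA replication genes. All motifs were searched on both strands; a TTTGAA match can fall on the same bases as a TTCNNNGAA match, and matches describe letters in a window only.

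Cenpe, the kinesin that links chromosomes to spindle microtubules, measured 40.3, 39.5, 41.2 and 34.4 CPM with H16R and 69.3, 60.7, 69.7 and 81.2 CPM with 3x. The groups did not overlap, and the log2 fold change was 0.85 ± 0.13 (edgeR adjusted p = 5.3e-05). Ect2, the exchange factor that starts cytokinesis, rose from 14.7, 15.2, 15.4 and 13.2 CPM to 25.2, 21.1, 24.1 and 29.7 CPM, a log2 fold change of 0.78 ± 0.12 (edgeR adjusted p = 0.00011). Its promoter, shown above, holds 1 match to TTTGAA and 2 to ATTGG. Of the other genes with a printed promoter, picked after their values were seen, Ube2c, a ubiquitin-conjugating enzyme of anaphase, rose by 0.78 ± 0.16, the spindle motor gene Kif11 by 0.68 ± 0.12, the mitotic kinase gene Cdk1 by 0.64 ± 0.15 and the separase gene Espl1 by 0.64 ± 0.15. Anln, the contractile ring protein anillin, was at 7.86, 7.63, 8.1 and 7.52 CPM with H16R and 13.1, 11.6, 12.9 and 15.3 CPM with 3x, 0.76 ± 0.11 on the log2 scale (edgeR adjusted p = 6.2e-05). Mki67, which encodes the proliferation antigen Ki-67, measured 313, 374, 379 and 305 CPM with H16R and 505, 504, 539 and 610.4 CPM with 3x, again without overlap, and rose by 0.65 ± 0.13 (edgeR adjusted p = 0.00112). Without mutein the levels were lower: Mki67 stood at 175 ± 6.77 CPM (SD, n = 4) with PBS and 266 ± 49.4 CPM with WT IL-2 in MHC II-blocked Tregs, and Cenpe at 22.1 ± 1.4 and 25.8 ± 2.84 CPM.

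Of 45 genes of S phase and DNA replication tested, 24 were higher with 3x (53.3%, against 12.7% of all genes tested), 0 were lower and 21 did not pass, with a median log2 fold change of 0.22. Rrm2, the regulated subunit of ribonucleotide reductase, was at 70.1, 59.5, 74.5 and 65 CPM with H16R and 106, 82.7, 103 and 131 CPM with 3x (0.65 ± 0.14, edgeR adjusted p = 0.00135). Cdc45, a part of the replicative helicase, was at 13.4, 12.9, 17 and 13.6 CPM with H16R and 21.6, 17.7, 21.2 and 23.2 CPM with 3x (0.56 ± 0.12, edgeR adjusted p = 0.00142). In both genes the 3x libraries lay above the H16R libraries, with 3x replicate 2 the closest to them. Uhrf1, which keeps DNA methylation at replicated sites, rose by 0.47 ± 0.11 and the primase subunit gene Prim1 by 0.37 ± 0.083. The count was 30 without 3x replicate 2 and 15 without 3x replicate 4.

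Among regulators of the G1 phase, drivers and brakes both had members that rose. Of 15 D-type cyclins, CDK4/6, CDK inhibitors and Rb family genes, 10 were higher with 3x (66.7%, against 12.7% of all genes tested). Lower was 1 (6.67%, against 12.6%), and without 3x replicate 2 the counts were 9 and 1. The cyclin gene Ccnd2 measured 335, 316, 343 and 324 CPM with H16R and 461, 439.5, 459.8 and 456 CPM with 3x, a rise of 0.46 ± 0.066 (edgeR adjusted p = 3.5e-05). Its partner kinase gene Cdk6 went from 100.3, 109.8, 112 and 97 CPM to 148, 157, 164 and 156 CPM (0.58 ± 0.12, edgeR adjusted p = 0.00105). In neither gene did the groups overlap. Among the inhibitors, Cdkn2a, the locus of p16 and p19 Arf, was among the 15 largest rises of genes past the test with a mean above 5 CPM. It was at 5.38, 3.02, 3.46 and 3.84 CPM with H16R against 9.21, 5.37, 9.68 and 9.37 CPM with 3x, with 3x replicate 2 level with the highest H16R library (1.10 ± 0.29, edgeR adjusted p = 0.00836). Cdkn2c, the gene of p18, rose by 0.40 ± 0.10 (edgeR adjusted p = 0.00597).

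**Figure D3:**
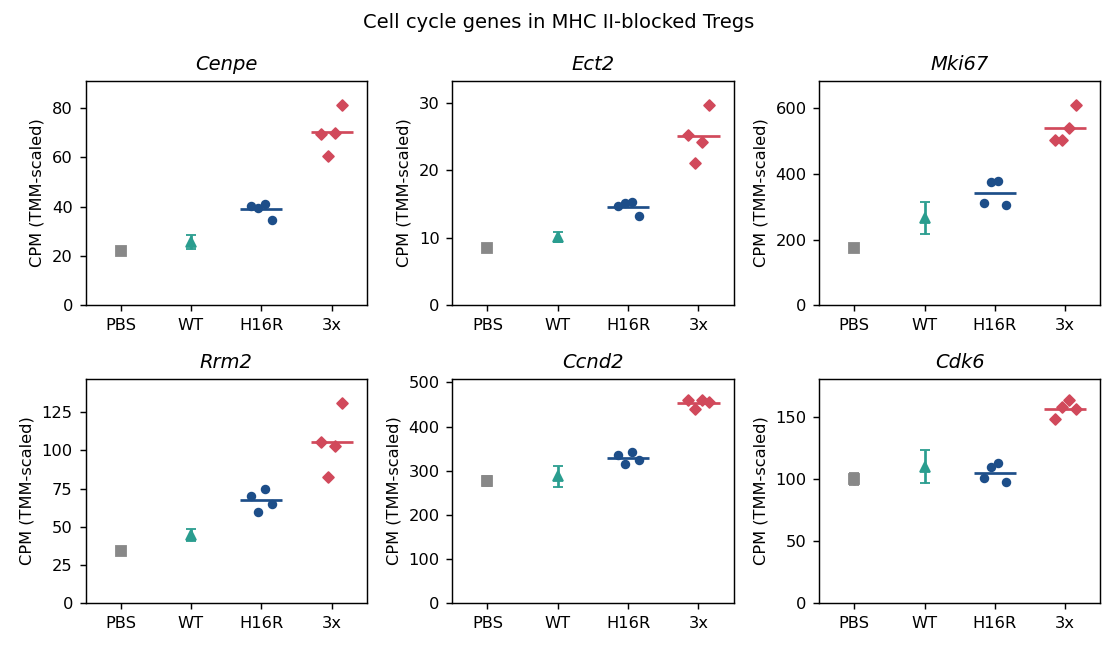
CPM of 6 cell cycle genes in MHC II-blocked Tregs; points are single mice for H16R and 3x (bar, mean of 4), and PBS and WT IL-2 are the mean with SD of 4 mice. For each gene the 4 libraries with 3x lie above the 4 with H16R.

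Within the IL-2 receptor and its kinases, the alpha chain moved most. Il2ra measured 476, 465, 494 and 508 CPM with H16R and 836, 628, 797 and 907 CPM with 3x, with the lowest 3x value in replicate 2 and no overlap. Because CD25 was also the bead target, this gene encodes the protein on which the cells were selected. It rose by 0.71 ± 0.094 (edgeR adjusted p = 1.9e-05), a 1.63-fold level. PBS gave 351 ± 19.4 CPM and WT IL-2 372 ± 46.3 CPM. Il2rb measured 1157, 1121, 1260 and 1243 CPM against 1383, 1217, 1380 and 1390 CPM, where 3x replicate 2 lay inside the H16R range, and its small rise of 0.17 ± 0.063 (edgeR adjusted p = 0.0611) was lost when any of H16R replicates 1 and 2 and 3x replicates 1, 3 and 4 was left out, with edgeR adjusted p up to 0.184. Il2rg differed by -0.038 (95% interval -0.13 to 0.055, edgeR adjusted p = 0.631). Jak1 and Stat5b were lower with 3x (-0.15 ± 0.048 and -0.13 ± 0.041), Stat5b not without 3x replicate 4 (edgeR adjusted p = 0.124). In all, 2 of the 7 genes were higher and 2 lower (28.6% each, against 12.7% and 12.6% of all genes tested), with or without 3x replicate 2.

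Of 21 feedback regulators and target genes of STAT5, 5 were higher with 3x (23.8%, against 12.7% of all genes tested) and 4 lower (19%, against 12.6%). Without 3x replicate 2 the counts were 6 and 4. Osm, the cytokine oncostatin M, was at 20.8, 22.8, 23.7 and 25.4 CPM with H16R and 44.9, 33.9, 45.6 and 47.5 CPM with 3x, without overlap (0.89 ± 0.12, edgeR adjusted p = 2.7e-05). Cish, an inhibitor of cytokine signaling that STAT5 induces, was at 205, 198, 214 and 212 CPM with H16R and 249, 232, 241 and 218 CPM with 3x (0.18 ± 0.059, edgeR adjusted p = 0.0313), and without 3x replicate 1 its edgeR adjusted p was 0.1254. Socs2, a related inhibitor, measured 88.2, 87.6, 107 and 100.3 CPM with H16R and 109, 85, 112 and 107 CPM with 3x and did not pass (difference 0.11, 95% interval -0.15 to 0.37, edgeR adjusted p = 0.626). Among the lower genes were the kinase gene Pim3 (-0.26 ± 0.062), the prostaglandin E2 receptor gene Ptger2 (-0.40 ± 0.078) and the ERK phosphatase gene Dusp6 (-0.32 ± 0.083).

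Among genes past the test with a mean above 5 CPM, the largest rises were in genes of low to moderate level. Ggt1, whose product cleaves extracellular glutathione, measured 10.5, 8.2, 11.6 and 12.6 CPM with H16R and 39.1, 21.4, 39.4 and 50.8 CPM with 3x, a 3.51-fold level (1.81 ± 0.20, edgeR adjusted p = 2.4e-06). Drc1, known from the dynein regulatory complex of cilia, was at 4.14, 2.95, 4.67 and 3.46 CPM with H16R and 13.9, 9.82, 17.2 and 17.5 CPM with 3x (1.93 ± 0.27, edgeR adjusted p = 2.7e-05). Amotl1, an angiomotin family scaffold, was at 7.86, 7.07, 11.8 and 9.49 CPM with H16R and 32.1, 27.5, 30.8 and 30.7 CPM with 3x (1.73 ± 0.16, edgeR adjusted p = 8.4e-08). In these 3 genes even the lowest 3x library was well above the highest H16R library, and PBS Tregs held 1.3 ± 0.128, 1.84 ± 0.31 and 0.771 ± 0.155 CPM. The insulin-like growth factor binding protein gene Igfbp4 (1.09 ± 0.15) was not above PBS with 3x. It stood at 47.15 ± 2.19 CPM with PBS, 46.7 ± 7.33 CPM with 3x and 22 ± 2.66 CPM with H16R. Igfbp4, 1500009L16Rik (1.78 ± 0.22), the ephrin receptor gene Epha3 (1.5 ± 0.30), the motor gene Myo6 (1.09 ± 0.16), the Arf exchange factor gene Psd3 (1.28 ± 0.21) and the epithelial membrane protein gene Emp1 (1.06 ± 0.17) completed the group together with the genes named next.

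The interferon-induced transmembrane protein genes Ifitm1 and Ifitm2 belonged to it too. Ifitm1 measured 31.6, 31.2, 48.1 and 57.2 CPM with H16R and 129, 60.4, 123 and 154 CPM with 3x, with 3x replicate 2 close to the highest H16R library (1.47 ± 0.31, edgeR adjusted p = 0.00143). With PBS it stood at 1.15 ± 0.333 CPM and with WT IL-2 at 3.85 ± 2.09 CPM. Ifitm2 measured 40.5, 36.8, 48.3 and 61.8 CPM with H16R and 103.6, 59.3, 101 and 146 CPM with 3x and overlapped at 3x replicate 2 (1.12 ± 0.25, edgeR adjusted p = 0.0021); the 2 genes are close paralogs, and how reads were divided between them is not known. Of 40 type I interferon-stimulated genes tested, 2 were higher and 8 lower with 3x and 30 did not pass, so that 25% were called, a share near the 25.2% of all genes tested. Oas1a, a sensor of double-stranded RNA, fell from 77.4, 67.5, 68.7 and 73.5 CPM to 57.1, 50.1, 47.4 and 45.1 CPM (-0.52 ± 0.092, edgeR adjusted p = 0.0003). Ifit2 and Ifit3, which encode antiviral effectors, fell (-0.30 ± 0.073 and -0.46 ± 0.15), but Ifit3 did not pass without H16R replicate 1, H16R replicate 2 or 3x replicate 4 (edgeR adjusted p = 0.128, 0.1135 and 0.1097). Without 3x replicate 2, 4 members were higher. The count of lower members was 12 without 3x replicate 2 and 2 without H16R replicate 1, H16R replicate 2 or 3x replicate 4, 3 without 3x replicate 3, 4 without 3x replicate 1, and 5 with total-count scaling.

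Cytokine genes moved in both directions. Il13, a type 2 cytokine, was at 5.49, 6.31, 7.37 and 9.12 CPM with H16R and 16.8, 15.8, 19.5 and 25 CPM with 3x, without overlap (1.44 ± 0.24, edgeR adjusted p = 0.00018). Il4, its partner in type 2 responses, was at 7.77, 9.86, 8.46 and 10.3 CPM with H16R and 13.3, 12.4, 15 and 22.6 CPM with 3x (0.80 ± 0.24, edgeR adjusted p = 0.0215), and Il21, a cytokine of follicular helper cells, at 14.8, 15.3, 11.2 and 14.4 CPM with H16R and 29.2, 24, 28.3 and 38.1 CPM with 3x (1.10 ± 0.37, edgeR adjusted p = 0.0374). The 3 genes were low, and without 3x replicate 4 the edgeR adjusted p was 0.1455 for Il4 and 0.1271 for Il21. Ifng, the type 1 cytokine interferon-gamma, went the other way, from 72.7, 77, 69.6 and 67.5 CPM to 49, 48.8, 49 and 47.2 CPM (-0.56 ± 0.11, edgeR adjusted p = 0.00083). The 4 values with 3x were close together and all below the 4 with H16R. Over 18 helper cytokine and lineage factor genes, 3 were higher (16.7%, against 12.7% of all genes tested) and 4 lower (22.2%, against 12.6%). Bcl6 of follicular helper cells was among the lower ones (-0.36 ± 0.073), and without 3x replicate 2 the counts were 3 and 5.

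Of 24 transcription regulators of effector Tregs, 5 were higher with 3x (20.8%, against 12.7% of all genes tested) and 6 lower (25%, against 12.6%). Without 3x replicate 2 the counts were 9 and 6. Bcl6 and Klf2 were among the lower ones (-0.36 ± 0.073 and -0.38 ± 0.10). Pparg, a lipid-sensing nuclear receptor that marks fat-tissue Tregs, measured 5.14, 4.16, 5.7 and 6.8 CPM with H16R and 13.7, 10.4, 12.1 and 19.5 CPM with 3x (1.35 ± 0.25, edgeR adjusted p = 0.00049). Il1rl1, a member of the list of other cytokine receptors that encodes the IL-33 receptor ST2, measured 80.2, 93.2, 112 and 95.5 CPM with H16R and 142, 135, 130.3 and 136 CPM with 3x (0.51 ± 0.11, edgeR adjusted p = 0.00213). Neither gene overlapped between the muteins, and Il1rl1 stood at 22.3 ± 4.05 CPM with PBS and 65.8 ± 6.95 CPM with WT IL-2. Ccr4, a chemokine receptor of skin-homing and effector Tregs, rose by 0.50 ± 0.10 and the aryl hydrocarbon receptor gene Ahr by 0.43 ± 0.082. Myb, a transcription factor of effector Tregs, rose by 0.67 ± 0.086 (edgeR adjusted p = 1.2e-05). PBS Tregs held more of it, 55.1 ± 2.51 CPM, against 36.8 ± 2.77 CPM with 3x and 23.2 ± 1.54 CPM with H16R. Prdm1, which encodes Blimp-1, measured 82.3, 86.6, 106 and 92.5 CPM with H16R and 116, 96.5, 108 and 114 CPM with 3x, overlapping, and its rise of 0.24 ± 0.084 (edgeR adjusted p = 0.043) was lost without H16R replicates 1 or 2 or 3x replicates 1 or 4. Gzmb, the granzyme B gene, measured 471, 442, 544 and 681 CPM with H16R and 819, 481, 706 and 909 CPM with 3x, overlapping, and did not pass (0.45, 95% interval -0.00083 to 0.89, edgeR adjusted p = 0.163), though it did without 3x replicate 2 or H16R replicate 4 (edgeR adjusted p = 0.0485 and 0.0923).

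Of 22 galectin, S100 and annexin genes, 6 rose (27.3%, against 12.7% of all genes tested), 0 fell and 16 did not pass. The share called in either direction, 27.3%, was near the 25.2% of all genes tested. Lgals3, the gene of galectin-3, measured 84.8, 80.4, 107 and 107 CPM with H16R and 197, 129, 189.7 and 222 CPM with 3x (0.96 ± 0.18, edgeR adjusted p = 0.00061). Lgals1 measured 579, 525, 716 and 712 CPM with H16R and 1020, 736, 937 and 1097 CPM with 3x (0.58 ± 0.14, edgeR adjusted p = 0.00481), and the membrane-binding annexin gene Anxa2 253, 226, 294 and 280.1 CPM with H16R and 444, 298, 401 and 460.2 CPM with 3x (0.61 ± 0.13, edgeR adjusted p = 0.00167). In each of them the lowest 3x library was replicate 2, still above the highest H16R library, and without it the list's count was 11. Of 21 integrins and adhesion molecules, 5 were higher (23.8%, against 12.7% of all genes tested) and 2 lower (9.52%, against 12.6%), again 5 and 2 without 3x replicate 2. The higher ones included the collagen-binding integrin genes Itga1 (0.76 ± 0.19) and Itga2 (0.47 ± 0.10) and the beta3 gene Itgb3 (0.49 ± 0.085). Itgae, which encodes CD103, was among the lower ones, at 210.1, 218, 259 and 217 CPM with H16R and 161, 175, 149 and 117 CPM with 3x (-0.59 ± 0.081, edgeR adjusted p = 2.7e-05).

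Of 25 early TCR response genes tested, 12 fell (48%, against 12.6% of all genes tested), 0 rose and 13 did not pass, with a median log2 fold change of -0.29. Tnfaip3, the NF-kB inhibitor A20, was at 3443, 3698, 3318 and 3319 CPM with H16R and 2200, 3096, 2524 and 2254 CPM with 3x (-0.45 ± 0.10, edgeR adjusted p = 0.00168). Nr4a1, the nuclear receptor used as a reporter of TCR signals, was at 708, 776, 834 and 769 CPM with H16R and 510.4, 697, 651 and 433 CPM with 3x (-0.43 ± 0.11, edgeR adjusted p = 0.00588). In both genes all 3x libraries were below all H16R libraries, and 3x replicate 2 was the highest of the 3x group. Junb, an AP-1 subunit, fell (-0.32 ± 0.066), as did the MAP kinase phosphatase gene Dusp1 (-0.35 ± 0.07) and the atypical IkB gene Nfkbid (-0.40 ± 0.081). Irf4, which TCR signals also induce, was at 126, 156, 155 and 133 CPM with H16R and 138, 156, 147 and 137 CPM with 3x and showed no difference past the test (0.023, 95% interval -0.20 to 0.25, edgeR adjusted p = 0.926). Myc did not pass either (-0.15, 95% interval -0.33 to 0.037, edgeR adjusted p = 0.286). The count of lower members was 14 without 3x replicate 2 and 10 to 14 over all fits that left out 1 library.

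Of 28 genes of the TCR complex and of proximal signaling tested, 13 were lower (46.4%, against 12.6% of all genes tested), 0 were higher and 15 did not pass, with a median of -0.11. Fyn, a Src family kinase, was at 562, 519, 515 and 568 CPM with H16R and 465, 461, 464 and 466 CPM with 3x (-0.22 ± 0.042, edgeR adjusted p = 0.00056). Plcg1, the phospholipase that starts calcium signaling, was at 424, 429, 395 and 420.5 CPM with H16R and 339.6, 388, 361 and 356 CPM with 3x (-0.21 ± 0.042, edgeR adjusted p = 0.00105). Neither overlapped between the muteins. The diacylglycerol kinase genes Dgka and Dgkz, which dampen the same pathway, fell too (-0.25 ± 0.044 and -0.21 ± 0.039). Zap70 and Lcp2, a kinase and an adaptor of the pathway, did not pass, with differences of -0.05 (95% interval -0.17 to 0.067) and -0.04 (-0.14 to 0.056), nor did the calcium sensor gene Stim1, which is on the calcium list (0.092, 0.011 to 0.17, edgeR adjusted p = 0.107). Stim1 was close to the threshold and passed, higher with 3x, under 9 of 21 alternatives, among them total-count scaling, without H16R replicate 4 and without 3x replicate 2 (edgeR adjusted p = 0.0334, 0.0779 and 0.0673). The general T cell markers moved in the same direction: 5 of 8 were lower with 3x, and their summed level was 4413 to 4805 CPM with H16R and 4016 to 4243 CPM with 3x; 7 of the 8 are on both lists, and the part of this shift in the result was not tested. The 13 became 11, with 1 higher, without 3x replicate 2, and 8 without H16R replicate 1, H16R replicate 4 or 3x replicate 1.

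NF-kB subunits and regulators fell in 10 of 24 cases (41.7%, against 12.6% of all genes tested) and rose in 3 (12.5%, against 12.7%). Map3k14, the NIK kinase of the noncanonical pathway, measured 83.5, 85.6, 76.7 and 87.6 CPM with H16R and 64.7, 74.2, 66.7 and 64.8 CPM with 3x (-0.30 ± 0.052, edgeR adjusted p = 0.00024). Nfkb1, the gene of p105 and p50, was one that rose, from 503, 474, 490.2 and 521 CPM to 595, 550.5, 596 and 634 CPM (0.26 ± 0.039, edgeR adjusted p = 7.6e-05). Both differences were small, and both separated the groups completely. The count of lower members was 10, with 2 higher, without 3x replicate 2 and 5 without 3x replicate 4. Of 16 TNF receptor superfamily genes, 4 were lower (25%, against 12.6% of all genes tested), Tnfrsf25 and Cd27 among them (-0.29 ± 0.061 and -0.22 ± 0.06). Tnfrsf8 alone was higher (0.30 ± 0.11), 6.25% of the list against 12.7% of all genes tested. It did not pass without H16R replicate 2, 3x replicate 1 or 3x replicate 4 (edgeR adjusted p = 0.208, 0.167 and 0.258). Without 3x replicate 2, 4 were lower and 3 higher.

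The chemokine genes Ccl3, Ccl4 and Ccl5 and the migration receptor genes Cxcr4 and Ccr7 were lower with 3x. Ccl5 measured 77.8, 80.8, 75.6 and 62.5 CPM with H16R and 33.3, 50.4, 36.3 and 54.5 CPM with 3x (-0.76 ± 0.19, edgeR adjusted p = 0.00592). Ccl4 measured 30.3, 47.7, 36.2 and 31.1 CPM with H16R and 22, 25.7, 18.2 and 22.4 CPM with 3x (-0.71 ± 0.22, edgeR adjusted p = 0.0212). Ccl3 measured 34.4, 57.2, 35.2 and 35.6 CPM with H16R and 26.6, 28.1, 25.6 and 27.2 CPM with 3x (-0.59 ± 0.22, edgeR adjusted p = 0.0634), where H16R replicate 2 was the highest; Ccl3 no longer passed without that library (edgeR adjusted p = 0.284), without 3x replicates 1, 3 or 4 (0.1247 to 0.1269), or with all gene biotypes tested (0.1054). The list of granzymes and cytotoxic or NK-type genes that holds these chemokines had 4 of 18 members lower (22.2%, against 12.6% of all genes tested) and 0 higher. Its share called in either direction, 22.2%, was below the 25.2% of all genes tested. Without 3x replicate 2 the counts were 4 lower and 3 higher. Cxcr4, the receptor that retains lymphocytes in bone marrow, was at 156, 136, 159.7 and 151 CPM with H16R and 83.3, 109.9, 100.5 and 94 CPM with 3x (-0.64 ± 0.12, edgeR adjusted p = 0.00038). Ccr7, which guides cells into lymph nodes, was at 170, 183, 142 and 158 CPM with H16R and 92.2, 141, 122 and 92.9 CPM with 3x (-0.54 ± 0.13, edgeR adjusted p = 0.0036). For both the 3x libraries were all lower, replicate 2 being the nearest to H16R. Over 18 chemokine receptors, 4 were lower (22.2%, against 12.6% of all genes tested) and 3 higher (16.7%, against 12.7%), and 5 and 6 without 3x replicate 2.

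Among genes past the test with a mean above 5 CPM, the largest falls included those of Gpm6b, a membrane glycoprotein gene (22.5, 19.4, 16.8 and 19.8 CPM against 8.28, 10.3, 9.99 and 7.81 CPM, -1.11 ± 0.22, edgeR adjusted p = 0.00077), and Rgs16, which shortens chemokine receptor signals (129, 116, 119.8 and 124 CPM against 74.9, 88.5, 66.7 and 57.2 CPM, -0.77 ± 0.14, edgeR adjusted p = 0.00036). The 3x libraries lay wholly below the H16R libraries in both. Matk, a kinase that inhibits Src family kinases, fell from 126, 121, 142 and 138 CPM to 85.2, 79.2, 84.6 and 77.2 CPM (-0.69 ± 0.074, edgeR adjusted p = 1.6e-06). With PBS it stood at 73.7 ± 5.82 CPM, below both muteins. The gelatinase gene Mmp9 fell as well (-0.75 ± 0.20). Also among the 15 largest falls were Gm4841 (-0.93 ± 0.14), the Rab5 exchange factor gene Rin2 (-0.73 ± 0.16), the chemokine gene Xcl1 (-0.73 ± 0.20), Gm14085 (-0.72 ± 0.11), the myosin gene Myo3b (-0.64 ± 0.11), the Rap exchange factor gene Rapgef4 (-0.64 ± 0.16), the arrestin-domain gene Arrdc4 (-0.63 ± 0.091) and the ubiquitin ligase gene March3 (-0.60 ± 0.11).

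Naive and recirculation genes were lower with 3x in 9 of 18 cases (50%, against 12.6% of all genes tested) and higher in 2 (11.1%, against 12.7%), with or without 3x replicate 2. Klf2, the transcription factor of circulating T cells, measured 698, 659.7, 634 and 753 CPM with H16R and 454, 564, 568 and 526 CPM with 3x (-0.38 ± 0.10, edgeR adjusted p = 0.00763). Il7r, the IL-7 receptor alpha chain, fell (-0.39 ± 0.12) with overlap at 3x replicate 2. Igfbp4, already named, rose. Bcl2, a survival gene that IL-7 and IL-2 sustain, did not pass (0.088, 95% interval -0.10 to 0.28). Over the Bcl2 family 2 of 13 were lower (15.4%, against 12.6% of all genes tested) and 0 higher, and 2 and 1 without 3x replicate 2. The death inducer Bcl2l11 was among the lower ones (-0.24 ± 0.052).

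Of 16 Treg identity genes, 5 were lower (31.2%, against 12.6% of all genes tested), 1 was higher (6.25% against 12.7%) and 10 did not pass, and without 3x replicate 2 the counts were 6 and 2. Lrrc32, which tethers latent TGF-beta to the surface, measured 491, 526, 504 and 501 CPM with H16R and 373, 429, 423 and 365 CPM with 3x (-0.35 ± 0.062, edgeR adjusted p = 0.00033). Izumo1r, the folate receptor 4 of Tregs, was at 580.5, 472, 511 and 592 CPM with H16R and 388, 378, 409 and 382 CPM with 3x (-0.47 ± 0.063, edgeR adjusted p = 1.9e-05). Foxp3 differed by -0.081 (95% interval -0.20 to 0.033, edgeR adjusted p = 0.353), Ikzf2, the gene of Helios, by -0.0068 (-0.22 to 0.20) and Ctla4 by -0.0093 (-0.21 to 0.19), each within the spread of the libraries. Tnfrsf18, which encodes GITR, differed by 0.10 (-0.052 to 0.25) and passed only without 3x replicate 2 (edgeR adjusted p = 0.0792), and the costimulatory receptor gene Icos by 0.091 (-0.14 to 0.32). Among 20 coreceptors, 3 were higher (15%, against 12.7% of all genes tested) and 6 lower (30%, against 12.6%), and 3 and 7 without 3x replicate 2. Pdcd1, the gene of PD-1, measured 66.5, 63.8, 68.2 and 73.9 CPM with H16R and 96.1, 76.1, 89.1 and 110.4 CPM with 3x (0.45 ± 0.11, edgeR adjusted p = 0.00426), and Cd6 and Cd5, which restrain TCR signals, fell (-0.25 ± 0.043 and -0.21 ± 0.047). Lag3 was lower in all 4 libraries with 3x (409, 409, 436 and 436 CPM against 376, 283, 396 and 369 CPM) but did not pass (-0.25, 95% interval -0.64 to 0.14, edgeR adjusted p = 0.42), nor did Il10 (-0.27, -0.56 to 0.011) or the repair factor gene Areg (-0.21, -0.44 to 0.028). Of 13 secreted and enzymatic suppressor genes, 1 was higher and 1 lower (7.69% each, below the 12.7% and 12.6% of all genes tested), and 2 and 2 without 3x replicate 2.

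**Figure D4:**
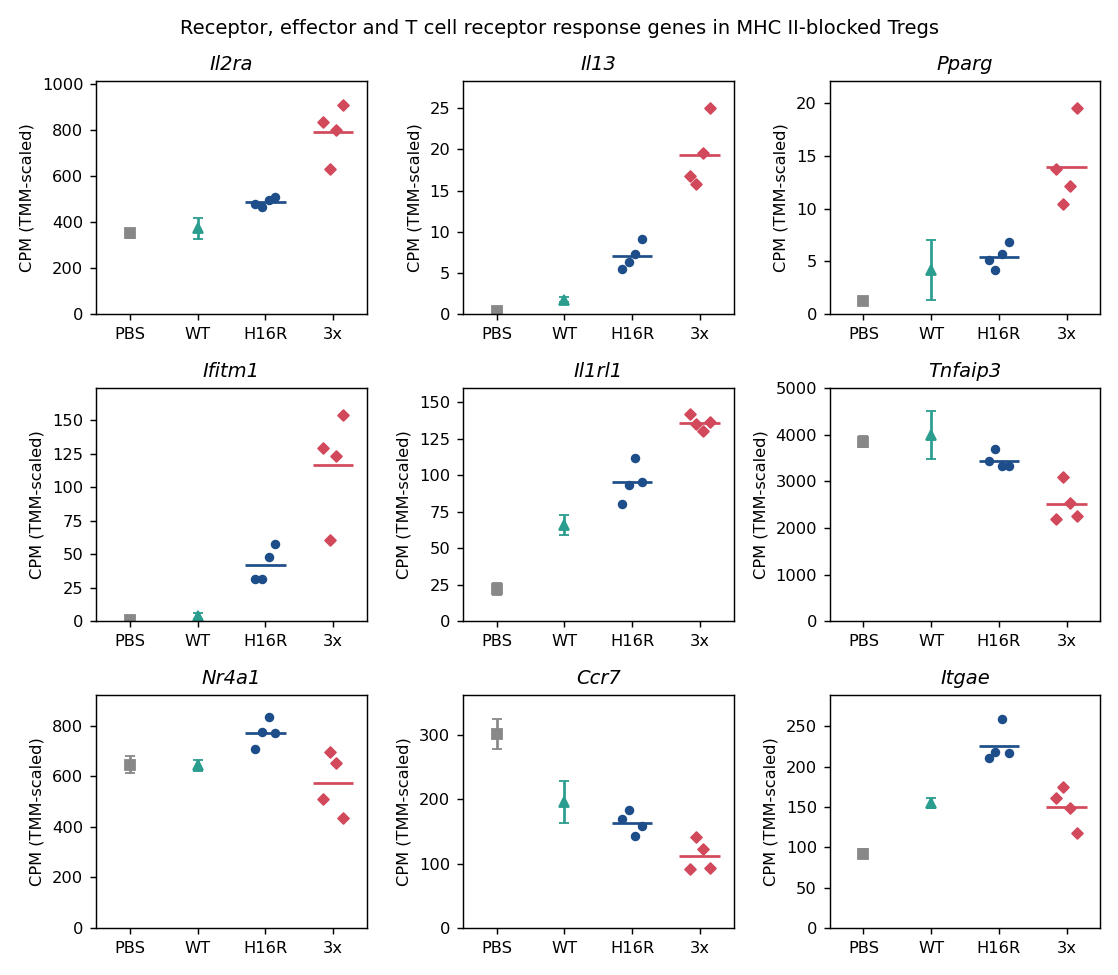
CPM of 9 receptor, effector and TCR response genes in MHC II-blocked Tregs; points are single mice for H16R and 3x (bar, mean of 4), and PBS and WT IL-2 are the mean with SD of 4 mice. Il2ra, Il13, Pparg, Ifitm1 and Il1rl1 are higher and Tnfaip3, Nr4a1, Ccr7 and Itgae lower in all 4 libraries with 3x.

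Of 76 ribosomal protein genes tested, 32 fell with 3x by small amounts (42.1%, against 12.6% of all genes tested), 0 rose and 44 did not pass; the median was -0.15, and 3 were positive. Rps14, of the small subunit, measured 1120, 1050, 1068 and 1169 CPM with H16R and 900.1, 933, 920.2 and 923 CPM with 3x (-0.26 ± 0.053, edgeR adjusted p = 0.00101). Rpl9, of the large subunit, measured 1233, 1150, 1163 and 1285 CPM with H16R and 1036, 1056, 1070 and 1050 CPM with 3x (-0.20 ± 0.049, edgeR adjusted p = 0.00519). Both separated the groups. Such genes have many near-identical pseudogene copies among which reads can be split, and the count moved with the processing: it was 21 with total-count scaling, 16 on log2(FPKM + 1), 16 and 13 without H16R replicates 1 and 4, 19 without 3x replicate 1 and 21 without 3x replicate 2. Ribosome biogenesis genes with Myc showed 2 higher and 3 lower of 56 (3.57% and 5.36%, below the 12.7% and 12.6% of all genes tested), and 3 and 2 without 3x replicate 2.

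Sterol synthesis and proteasome genes were higher with 3x where they passed the test. Of 23 genes of sterol synthesis and uptake, 10 were higher (43.5%, against 12.7% of all genes tested) and 0 lower with 3x. Cyp51, the sterol demethylase, was at 32.1, 34.3, 34.6 and 40.6 CPM with H16R and 53.4, 42.6, 45.5 and 44.1 CPM with 3x (0.39 ± 0.091, edgeR adjusted p = 0.00352), and Sc5d, a late enzyme of the pathway, at 24.4, 23.2, 23.7 and 24.1 CPM with H16R and 29.8, 28.8, 30.6 and 30.5 CPM with 3x (0.33 ± 0.06, edgeR adjusted p = 0.00045). Hsd17b7 rose by 0.52 ± 0.11. These groups did not overlap. Proteasome subunits were higher in 14 of 41 cases (34.1%, against 12.7% of all genes tested), Psmd1 by 0.27 ± 0.049, and lower in 0. The count of higher members was 7 without 3x replicates 1 or 4, 8 without H16R replicate 2 and 21 without 3x replicate 2. Without 3x replicate 2 the sterol counts were 12 and 1. Fatty acid synthesis had 4 of 15 higher (26.7%), above the 12.7% of all genes tested, and oxidative phosphorylation 6 of 75 (8%), below it. In both 0 were lower, and without 3x replicate 2 the counts of higher members were 3 and 15. Of 27 glycolysis and lactate genes, 5 were higher (18.5%, against 12.7% of all genes tested) and 6 lower (22.2%, against 12.6%), and 6 and 8 without 3x replicate 2. The phosphofructokinase gene Pfkp rose by 0.21 ± 0.054 and the lactate dehydrogenase gene Ldhb fell (-0.44 ± 0.078).

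For the remaining lists, the share of members called ranged from 20% for heat shock and chaperone genes to 45.8% for PI3K, Akt, mTOR and Foxo genes, against 25.2% of all genes tested; calcium genes (26.1%) and MAPK feedback genes (28.6%) were near that share. Of 25 other cytokine receptors, 8 were lower and 2 higher. TGF-beta activation and response genes had 6 of 22 lower, Tgif1 among them (-0.58 ± 0.10), and Tgfb3 higher (0.91 ± 0.19). Among 24 genes of PI3K, Akt, mTOR and Foxo, 5 were higher and 6 lower, and the PI3K inhibitor gene Pik3ip1 fell (-0.39 ± 0.064). Calcium, calcineurin and NFAT genes had 4 higher and 2 lower of 23, with the channel gene Orai2 lower (-0.20 ± 0.042). ATF4 stress and amino acid genes were 5 and 5 of 27, with Ppp1r15a, which ends the stress block of translation, at 1906, 1952, 1677 and 1812 CPM with H16R and 1341, 1672, 1340 and 1262 CPM with 3x (-0.39 ± 0.072, edgeR adjusted p = 0.00052). Heat shock and chaperone genes were 3 and 3 of 30, DNA methylation and Polycomb regulators 4 and 4 of 21, MAPK phosphatases and Sprouty-type feedback genes 2 and 4 of 21. GIMAP GTPases, which support lymphocyte survival, had 3 of 8 lower and 0 higher, Gimap6 among the former (-0.35 ± 0.061). Without 3x replicate 2 the higher and lower counts of these lists were 1 and 7 for other cytokine receptors, 1 and 7 for TGF-beta genes, 6 and 7 for PI3K to Foxo, 5 and 2 for calcium, 7 and 7 for ATF4, 8 and 5 for chaperones, 3 and 5 for DNA methylation and Polycomb, 4 and 5 for MAPK feedback and 0 and 3 for GIMAP genes.

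Lists that the study itself drew from these samples are not independent evidence of direction. Of 54 genes in its module regulated by IL-2 and TCR together, 14 were higher with 3x (25.9%, against 12.7% of all genes tested), Il2ra and Il1rl1 among them. Another 10 were lower (18.5%, against 12.6%), Itgae among them, and without 3x replicate 2 the counts were 16 and 8. Of 15 genes in its TCR-dependent module, 7 were lower (46.7%, against 12.6% of all genes tested) and 0 higher, and 9 lower without 3x replicate 2. Atf4, a stress transcription factor of that module, was at 362, 370, 356 and 364 CPM with H16R and 299, 326, 314 and 300.2 CPM with 3x (-0.23 ± 0.043, edgeR adjusted p = 0.00052), and the autophagy receptor gene Sqstm1 fell (-0.20 ± 0.045).

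The same pair of muteins was compared in Tregs of mice given isotype antibody, in 4 libraries each that are separate from the 8 above. There 1429 genes passed (11.5% of those tested), 714 higher (5.76%) and 715 lower (5.77%) with 3x. Of the genes called under MHC II blockade, 778 were also called with isotype, which is 24.9% of the blockade calls and 54.4% of the isotype calls, and 739 of them had the same direction. G2 and mitosis genes were higher with 3x in both arms, 42 of 51 with isotype at a median of 0.54, and 0 of the 51 passed the test of the difference between arms, whose median was 0.083. Cenpe had an isotype fold change of 0.72 on the log2 scale and Mki67 of 0.54. TCR response genes had 12 lower members under blockade and 3 with isotype, and ribosomal protein genes 32 and 0. The difference between these counts was judged gene by gene, by the test of the 3x-H16R difference under blockade minus that with isotype.

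That test called 285 genes, 2.3% of those tested, with the difference greater under blockade for 157 (1.27%) and smaller for 128 (1.03%). Of these, 228 were also called under blockade. Among TCR response genes 4 of 25 were called, all with a negative difference, Tnfaip3 (-0.46 ± 0.14, edgeR adjusted p = 0.0975) and Nfkbid (-0.40 ± 0.11, edgeR adjusted p = 0.0813) among them. Of 76 ribosomal protein genes 2 were called, one of them Rpl9 (-0.24 ± 0.069, edgeR adjusted p = 0.0917); the list's median log2 fold change was -0.15 under blockade and 0.045 with isotype, and its median difference between arms was -0.20, against 0.00044 over all genes tested. Ribosome biogenesis genes, which were higher with 3x in 21 of 56 cases in the isotype arm, had 4 called, all negative, with Gnl3, a nucleolar GTPase, at -0.19 under blockade and 0.31 with isotype (edgeR adjusted p of the difference = 0.00035). Of 24 transcription regulators of effector Tregs, 7 were called, 6 with a positive and 1 with a negative difference. In the isotype arm 1 of that list was higher and 6 lower with 3x. The count of 285 was sensitive to single libraries: it was 703 without blocked 3x replicate 2, 126, 161 and 98 without blocked 3x replicates 1, 3 and 4, 123, 171 and 188 without blocked H16R replicates 1, 2 and 4, 154 without isotype H16R replicate 1, and 145 and 135 without isotype 3x replicates 2 and 4. With total-count scaling 65.7% of the calls were positive, against 55.1%.

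Among called genes with a mean above 5 CPM, the largest positive differences between arms included those of the cytokine genes Il13 and Il21. Il13 was at 3.66 to 7.71 CPM with H16R and 2.11 to 4.52 CPM with 3x in the isotype arm, a log2 fold change of -0.59 against 1.44 under blockade, and the difference was 2.03 ± 0.34 (edgeR adjusted p = 0.00318). Il21, at 3.34 to 11.3 CPM with H16R and 1.37 to 3.73 CPM with 3x there, had a difference of 2.25 ± 0.56 (edgeR adjusted p = 0.0418). Both genes were higher with 3x than with H16R under blockade, and with isotype their means were lower with 3x. The difference for Il21 was lost without isotype H16R replicate 4 or blocked 3x replicate 4 (edgeR adjusted p = 0.1305 and 0.1133). Vdr, the vitamin D receptor gene, was at 26, 25.4, 23 and 27.9 CPM with H16R and 35.7, 32.3, 39 and 52 CPM with 3x under blockade, where it did not pass (0.63, edgeR adjusted p = 0.12; 0.0865 without 3x replicate 2), and at 10.9 to 23 CPM with H16R and 2.71 to 5.85 CPM with 3x with isotype, where it fell (log2 fold change -1.65); the difference was 2.28 ± 0.42 (edgeR adjusted p = 0.00519). Mcpt1, a mast cell protease gene, and Cd109, a TGF-beta coreceptor gene, also had positive differences (2.43 ± 0.57 and 2.96 ± 0.73), from isotype log2 fold changes of -3.18 and -2.63; Cd109 was lost without isotype H16R replicate 4 (edgeR adjusted p = 0.1445), and both were lost on log2(FPKM + 1). Ggt1 (1.53 ± 0.30), Pparg (1.29 ± 0.35), Il4 (2.00 ± 0.36) and Pdcd1 (0.81 ± 0.15) also passed, whereas Il2ra (0.33 ± 0.13, edgeR adjusted p = 0.254) and Ifitm1 (0.80 ± 0.46, edgeR adjusted p = 0.489) did not.

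Among the largest negative differences, by the same rule on mean level, were those of Ccr7 and Rgcc. Ccr7 was at 219 to 269.8 CPM with H16R and 304 to 380.1 CPM with 3x in the isotype arm, where its log2 fold change was 0.39, against -0.54 under blockade, a difference of -0.94 ± 0.18 (edgeR adjusted p = 0.0076). Rgcc, a regulator of the cell cycle, measured 21.6, 21.9, 22 and 21.6 CPM with H16R and 12.5, 20.1, 14.9 and 12.3 CPM with 3x under blockade and 31.5 to 41.2 CPM with H16R and 43.5 to 52.5 CPM with 3x with isotype (difference -0.93 ± 0.17, edgeR adjusted p = 0.00494). Both genes fell with 3x in the blocked mice and rose with 3x in the isotype mice. Zfyve28 (-0.91 ± 0.12), Xcl1 (-1.04 ± 0.28) and Igfbp4 (-0.85 ± 0.21) completed the group, and Igfbp4 rose in both arms, more with isotype. Xcl1 was lost in 8 of the 16 fits that left out 1 library, and Igfbp4 without blocked H16R replicate 1 or blocked 3x replicate 1 (edgeR adjusted p = 0.1027 and 0.1048). Markers of other cells differed between the arms as well: summed plasma cell genes were 727 to 1632 CPM in the 8 blocked libraries and 163.4 to 577.9 CPM in the 8 isotype libraries, B cell genes 54.2 to 143.6 and 33.8 to 46.5 CPM, and CD8 and NK cell genes 88.4 to 248.7 and 24.9 to 39.4 CPM. Plasma cell genes also differed between the muteins in the isotype arm, summed to 293 to 577.9 CPM with H16R and 163.4 to 275.1 CPM with 3x. There 6 of the 7 were lower with 3x, at a median log2 fold change of -1.52, against 0 called and -0.24 under blockade; the median difference between arms was 1.28, and 1 of the 7 passed the test of it. The part of these markers in the differences between arms, positive ones such as Il21, Vdr, Mcpt1 and Cd109 included, was not tested.

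**Figure D5:**
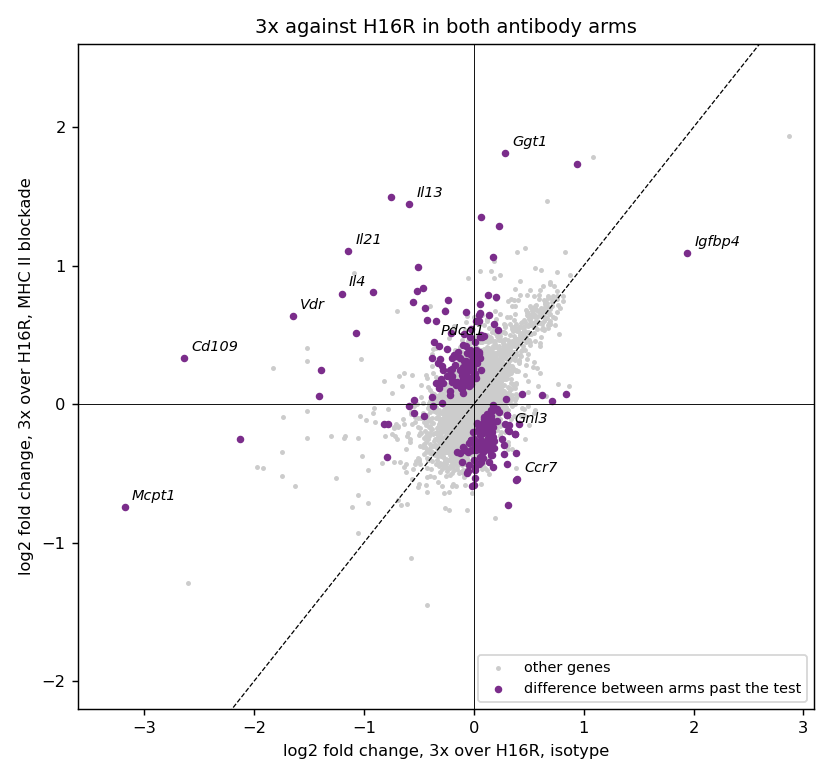
Log2 fold change of 3x over H16R with isotype (x axis) and under MHC II blockade (y axis) for the 9458 genes with a mean above 5 CPM in the 8 blocked libraries; purple genes (263) passed edgeR's test of the difference between arms, and the dashed line marks equal change. Il13, Il21, Il4 and Vdr lie in the upper left, and Ccr7 and Gnl3 are below the line with isotype values above 0.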

How the data were processed

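RNA was sequenced from bead-purified splenic Tregs of individual mice with a stranded poly(A) protocol in paired reads. According to the study's methods, the authors aligned reads with the OSA aligner of Omicsoft Array Suite to the mouse B38 genome, and the deposited values are RSEM expected counts per gene and FPKM, which the authors made with a gene model named GENCODE v19. Expected counts were rounded here; 72.8% of the values above 0 were whole within 1e-06. The file headers name libraries by the identifiers in the sample descriptions, which gave the groups.

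All 32 Treg libraries entered 1 model of 8 groups in edgeR 4.0.16 (R 4.3.3) with TMM scaling and the quasi-likelihood test, over the 12390 protein-coding genes (annotation GRCm38) above 0.5 CPM in at least 4 libraries; 29 genes with an empty cell were left out. The 0.1 threshold on Benjamini-Hochberg adjusted p and these filters follow the study's methods, whose test was DESeq2 1.30.1; DESeq2 1.42.0 and limma 3.58.1 on log2(FPKM + 1) were alternatives, as were other scalings, filters, thinning, a replicate block and leaving out each library. The contrast between arms was the 3x-H16R difference under blockade minus that with isotype. Both contrasts were tested on simulated data with known changes.

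Members and gene lists were chosen with earlier results of these data known. Named genes were the 15 largest rises and 15 largest falls among called genes above 5 CPM, the 5 largest differences between arms in each direction, up to 4 called genes per list by p, and a fixed set of Treg genes; not all are described. Libraries of each of the 8 Treg groups differed pairwise beyond counting noise (chi-square per gene at least 3.83), so none was counted as a duplicate; 2 isotype WT IL-2 libraries whose titles share a replicate number differed by 29.6 and both entered the shared spread. Which libraries were made from which RNA input is not given in the sources used here. Conventional T cells were not analysed here. Some genes and 1 gene list are not reported here.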

Additional observations from a re-analysis of the deposited data

Results flagged for a closer look

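In groups of 4 libraries, a library was set apart when its gap to the nearest other, divided by the group's range, was above Dixon's 95% critical value; chance alone sets apart about 1 group in 20, and 17 of the 306 groups tested (5.56%) were. Among 3x libraries replicate 2 was the one for 6 genes: Il2rb (0.942), Zap70 (0.933), Tgfb3 (0.902), Cdkn2a (0.891), Il7r (0.837) and Ifit3 (0.835). For Ifng it was 3x replicate 4 (0.85), which lay below the other 3. Among H16R libraries it was replicate 2 for Ccl3 (0.95), Tnfrsf8 (0.861) and Dusp1 (0.842), replicate 3 for Igfbp4 (0.913), Cdc45 (0.847) and Itgae (0.847), replicate 4 for Il7r (0.889) and replicate 1 for Ldhb (0.871). Summed CD8 and NK cell markers were at 248.7 CPM in 3x replicate 4 against 130.2 to 133.2 CPM in the other 3 (0.975), and summed B cell markers at 143.6 CPM in 3x replicate 3 against 63.5 to 72.9 CPM (0.883). The part of these markers in the differences between muteins was not tested.

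The 3x-H16R difference under MHC II blockade was unlike that with isotype for 285 genes by edgeR's test of the difference between arms. On the log2 scale, blockade minus isotype, it was 2.96 for Cd109, 2.43 for Mcpt1, 2.28 for Vdr, 2.25 for Il21, 2.03 for Il13, 2.00 for Il4, 1.53 for Ggt1, 1.29 for Pparg and 0.81 for Pdcd1. It was -1.04 for Xcl1, -0.94 for Ccr7, -0.93 for Rgcc, -0.91 for Zfyve28, -0.85 for Igfbp4, -0.46 for Tnfaip3, -0.40 for Nfkbid and -0.24 for Rpl9.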

How the results depend on the processing

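The count of 3127 genes stayed within 1.5 times under the alternatives tried, at 2263 without 3x replicate 1 to 4222 with the replicate number as a block, with 2 exceptions: 71 genes passed when the log2 fold change also had to reach 1 in size, and 1975 were called without 3x replicate 4. Leaving out single libraries gave 1975 to 3678. With an adjusted p under 0.05 it was 2284. DESeq2 called 3256, edgeR after thinning to 26.73 M counts 2853, and limma on log2(FPKM + 1) 2956, of which 61% were higher with 3x.

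The count of 285 for the difference between arms was less stable: 177 without the CPM filter, 611 with only the 16 mutein libraries, 129 with an adjusted p under 0.05, 35 when the log2 difference also had to reach 1 in size, 493 with DESeq2, 739 with the replicate block, and 98 to 703 over fits that left out 1 library. The cause was not tested, except that a stricter threshold keeps fewer genes by construction.

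Same-numbered H16R and 3x libraries were not alike throughout: their deviations correlated at -0.134, 0.309, -0.0886 and 0.125 for replicates 1 to 4. Pairs with different numbers ran from -0.293 to 0.146, so only the replicate 2 pair lay above that range. A model blocked by replicate called 4222 genes, against 3013 from the same 8 libraries unblocked. Why the block raised the count was not tested. No gene that passed the test and is described here changed direction; the log2 fold changes of Ctla4, Ikzf2, Irf4 and Zap70, which did not pass, crossed 0 within -0.098 to 0.067. Genes that did not pass as reported but did under some alternatives were Stim1 (9 of 21), Batf (5), Vdr (4), Gzmb and Mcpt1 (3 each), Cd109 (2), Il10 and Lag3 (2 each, with only the contrast's libraries or the replicate block) and Tnfrsf18 (1). Over single genes named by rule and alternatives, 3726 results stayed on their side of the threshold, 233 were lost and 31 were gained; for differences between arms, 270 stayed and 20 were lost. At this depth small changes are the limit, and a gene or list that did not pass is not shown to be alike between the muteins or the arms.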
